A study of Mus musculus with 4 samples.

Results

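The genes that write, erase and read DNA methylation were followed on 4 arrays of mouse bone marrow. The family held 9 genes, Dnmt1, Uhrf1, Dnmt3a, Dnmt3b, Dnmt3l, Tet1, Tet2, Tet3 and Mbd2. Every probe set that names 1 of them alone in the platform's gene annotation was taken, whatever its value, which gave 22 of the 45101 probe sets on the array. Of these 22, 21 were bright enough to be tested, and each of the 9 genes kept at least 1. A total of 2 arrays held RNA of bone marrow cells from mice with MN1 leukemia. MN1 is a transcriptional coregulator, and it had been carried by a retrovirus into C57BL/6J marrow taken 4 days after 150 mg/kg of fluorouracil. That marrow had been stimulated for 48 hours with interleukin-6, interleukin-3 and stem cell factor, sorted for GFP and injected into syngeneic recipients irradiated with 750 cGy together with helper marrow. The other 2 arrays held RNA of Gr1+/CD11b+ cells (labelled Gr1/Mac1), mature myeloid cells from the marrow of healthy C57BL/6J mice. The labels carry 1 treatment text for all 4 arrays, and it is read here as that of the leukemic mice. The design text calls the 2 arrays of each group biological replicates. Recipients also received unmodified marrow, and the labels do not say whether the leukemic cells were sorted again before RNA extraction, so host and helper cells may be in that RNA. No normal immature cells were arrayed, so leukemia and immaturity cannot be told apart, and neither can fewer cells of a type and less RNA per cell.

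DNA methylation in mammals is placed mostly on cytosines that precede a guanine (CpG). Dnmt3a and Dnmt3b set new methyl groups, Dnmt3l assists them without catalytic activity of its own, and Dnmt1 copies existing marks to the daughter strand after replication, guided there by Uhrf1. The Tet enzymes oxidise methylcytosine, which starts its removal, and Mbd2 binds methylated CpG and brings the NuRD complex, a nucleosome remodeller with histone deacetylases. In human acute myeloid leukemia DNMT3A and TET2 are among the genes that are often mutated, and in mice both limit the self-renewal of blood stem cells.

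Promoter sequences of RefSeq (build GRCm38.p6, 250 bases before to 50 after each start) matched 8 of the 9 genes, with 15 start sites. Mbd2 was not among them. The promoters of the 3 genes whose signals differed most between the groups are shown first, each at its start site richest in CpG, with every CpG in capitals, since CpG is the substrate of these enzymes.
Dnmt3b, chr2:153649199-153649498, plus strand: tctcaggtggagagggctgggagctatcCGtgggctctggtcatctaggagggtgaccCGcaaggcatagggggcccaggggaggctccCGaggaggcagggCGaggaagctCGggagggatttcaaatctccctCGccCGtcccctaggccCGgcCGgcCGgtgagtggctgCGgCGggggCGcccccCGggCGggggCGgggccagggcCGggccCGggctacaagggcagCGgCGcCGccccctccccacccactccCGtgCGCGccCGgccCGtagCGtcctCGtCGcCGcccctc
Tet1, chr10:62887275-62887574, minus strand: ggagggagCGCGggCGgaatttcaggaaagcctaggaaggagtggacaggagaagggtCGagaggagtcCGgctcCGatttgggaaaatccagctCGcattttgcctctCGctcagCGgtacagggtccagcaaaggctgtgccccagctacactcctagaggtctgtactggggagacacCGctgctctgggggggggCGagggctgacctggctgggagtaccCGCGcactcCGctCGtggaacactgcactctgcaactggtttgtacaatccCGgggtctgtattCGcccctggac
Dnmt3l, chr10:78042037-78042336, plus strand: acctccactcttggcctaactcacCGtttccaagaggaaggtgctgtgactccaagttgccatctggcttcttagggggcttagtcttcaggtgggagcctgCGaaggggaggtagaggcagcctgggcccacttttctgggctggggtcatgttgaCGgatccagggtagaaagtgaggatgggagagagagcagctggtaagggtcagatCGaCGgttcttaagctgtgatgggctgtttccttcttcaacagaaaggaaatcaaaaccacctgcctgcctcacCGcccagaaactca
The Dnmt3b window held 30 CpG and the Tet1 window 17, against a median of 7 over all 32851 promoter windows. Dnmt3l had 3 start sites with 6, 4 and 3 CpG. Among the other members Tet2 held 57 CpG, more than 99.8% of windows, and the richest start site of Dnmt3a held 47. Dnmt1 and Uhrf1, which work together at the replication fork, are shown next with capitals on TTTNNCGC, the letters of an E2F site with its central bases left open, on either strand.
Dnmt1, chr9:20952574-20952873, minus strand: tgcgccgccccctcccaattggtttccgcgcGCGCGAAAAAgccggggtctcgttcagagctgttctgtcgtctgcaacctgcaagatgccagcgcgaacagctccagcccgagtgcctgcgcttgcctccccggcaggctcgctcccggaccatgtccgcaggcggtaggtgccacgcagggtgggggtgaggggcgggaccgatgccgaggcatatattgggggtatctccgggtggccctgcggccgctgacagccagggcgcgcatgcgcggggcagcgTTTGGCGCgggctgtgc
Uhrf1, chr17:56304063-56304362, plus strand: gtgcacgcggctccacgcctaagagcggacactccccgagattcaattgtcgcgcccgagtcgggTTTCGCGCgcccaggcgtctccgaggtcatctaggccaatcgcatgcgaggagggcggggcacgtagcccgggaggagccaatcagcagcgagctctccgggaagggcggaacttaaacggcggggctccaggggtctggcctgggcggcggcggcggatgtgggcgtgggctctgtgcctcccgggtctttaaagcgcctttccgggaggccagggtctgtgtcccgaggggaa
The Dnmt1 window held 1 forward match and 2 reverse matches that overlap each other, and the Uhrf1 window held 1 forward match. A second start site of Uhrf1 held 1 more. No other window of the 8 genes held the motif, and 5.17% of all windows did. The motif itself holds a CpG, and the Dnmt1 and Uhrf1 windows shown held 33 CpG each against the median of 7. The share over all windows is thus not one for windows of like CpG content. A match is a run of letters and not a bound site.

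Each array had been scaled to the same trimmed mean before deposit. For beta-actin, the signal at the 3′ end over that at the 5′ end was 3.09 to 3.28 in leukemic and 1.32 to 1.39 in mature arrays, and the hybridization controls had a geometric mean of 8949.8 to 11918 against 4044 to 4167. The part of either in the results was not tested, beyond the scaling to these controls given below. Mature replicate 2 alone gave a high signal for the Y-linked gene Eif2s3y, 4409 against 2.51 to 3.01 on the other arrays. The single Mn1 probe set read 17.7 and 92.6 in leukemic against 3.92 and 12.1 in mature arrays. Only the signal of leukemic replicate 2 lay above 47.6, the lowest mean signal among tested probe sets. Whether this probe set reads the retroviral MN1 was not tested. Of the cell type markers, 7 of 8 tested stem and progenitor genes passed as higher in leukemic marrow (summed signal 40066 to 40601 against 3494 to 5322). All 8 monocyte markers passed as lower (6856 to 8749 against 34727 to 63407). Of 9 neutrophil markers 4 passed as lower, and their summed signal overlapped, at 233748 to 398087 in leukemic against 313449 to 394504 in mature arrays. All 4 tested mast cell markers (42387 to 56040 against 249 to 344) and 3 of 4 tested erythroid markers (14774 to 26093 against 3092 to 7537) passed as higher, as did 1 of 5 megakaryocyte markers. Most of the mast cell sum was Ms4a2 (25533.5 and 34597 in leukemic arrays) and Cpa3 (15961.5 and 19543). The mast cell marker Mcpt4 read 26.0 and 5.89 in leukemic against 6.48 and 9.40 in mature arrays. Tpsb2 read 37.1 and 8.71 against 50.3 and 3.77, and both were too dim to be tested. Most of the leukemic erythroid sum was Klf1 (9157 and 11465) and Slc4a1 (3038 and 9841). Most of the mature erythroid sum was Alas2 (6164 and 2176), which read 1354 and 3152 in leukemic arrays, so its groups overlapped. None of the 4 tested B cell markers passed (summed signal of 6 genes 562 to 782 against 462 to 745), nor did the 1 tested T cell marker (4 genes, 167 to 231 against 106 to 153). Most of the B cell sum was Cd79b, at 513 and 193 in leukemic against 430 and 165 in mature arrays. The part of these other cells in the results below was not tested.

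Signals below are MAS5 signals, a linear intensity. Log2 fold changes are differences of log2(signal + 16), leukemic minus mature, a scale that understates the change of dim probe sets. Each adjusted p is from limma with Benjamini-Hochberg adjustment over all 27022 tested probe sets, with a threshold of 0.05. Of the 21 tested member probe sets 8 passed as higher and 2 as lower in leukemic marrow, against a background of 34.9% of all tested probe sets that passed, 21.2% higher and 13.6% lower. With so many calls on the whole array, the count is a description and sets the family apart in no way. Both Dnmt3b probe sets and 3 of the 4 Tet1 probe sets passed, and none of Uhrf1, Tet3 or Mbd2 did. The Dnmt3l probe set and 2 of the called Tet1 probe sets passed the filter on low signals only through the group where they were high, so counts over the tested members lean towards probe sets that differ. The median log2 fold change was 0.70 over the 21 tested member probe sets and 0.19 over all. In 20 of the 21 the arrays of the groups did not overlap, which held for 70.0% of all tested probe sets. Without leukemic replicate 1 or leukemic replicate 2 there were fewer calls, among the members and over all tested probe sets alike. The median log2 fold change of the tested members was then 0.68 and 0.60, against 0.19 and 0.18 over all.

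**Figure D1:**
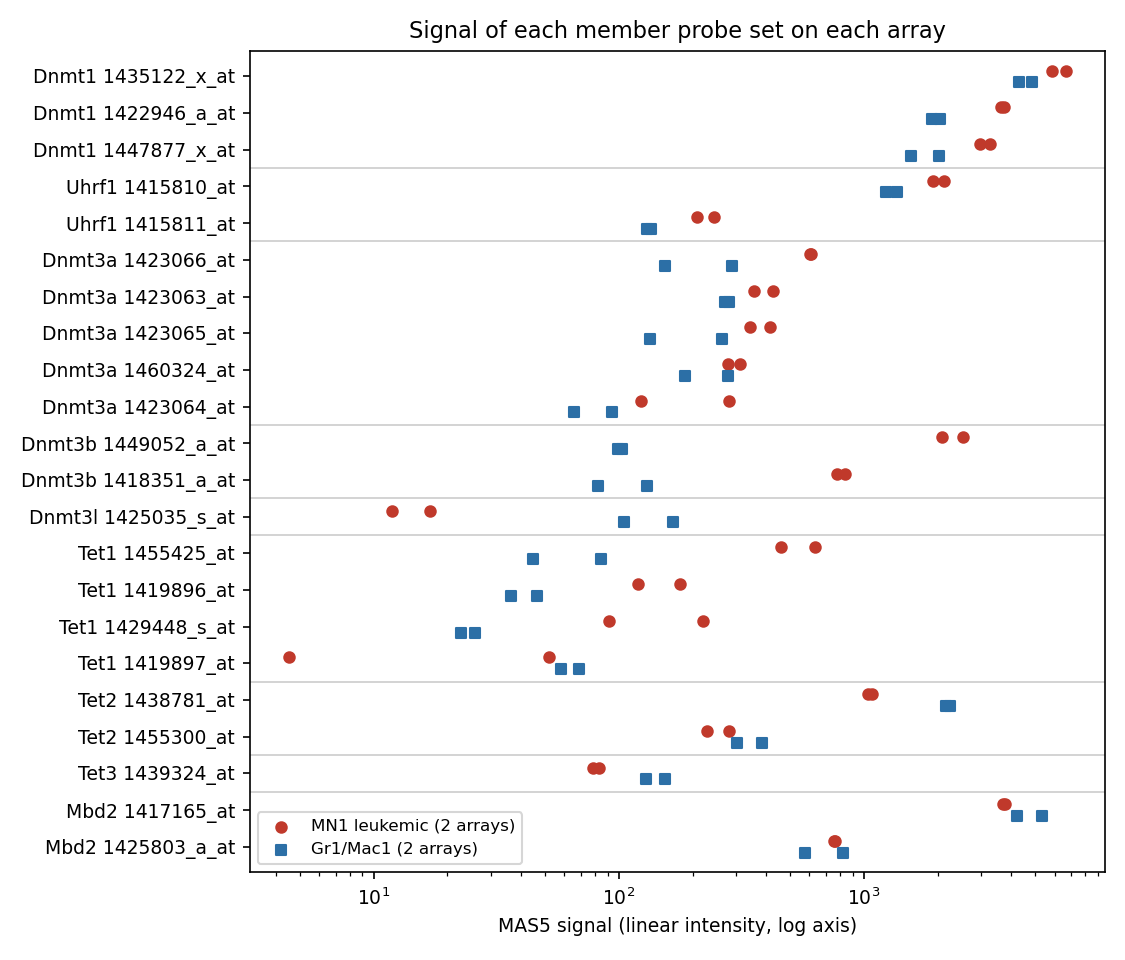
MAS5 signal (linear intensity, log axis) of each of the 22 member probe sets on each array, with MN1 leukemic arrays as circles and Gr1/Mac1 arrays as squares. The circles of both Dnmt3b probe sets lie far to the right of their squares, those of Dnmt3l far to the left, and both Mbd2 probe sets lie close together in the groups.

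The maintenance writer Dnmt1 was higher in leukemic marrow in 2 of its 3 probe sets. Probe set 1422946_a_at read 3618 and 3721 in the leukemic against 1902 and 2052 in the mature arrays. Both leukemic arrays lay above both mature arrays, with little spread within either group. The log2 fold change was 0.89 (SE 0.23, adjusted p = 0.023). Probe set 1447877_x_at read 2984 and 3274 against 1551 and 2034.6, and again the groups did not overlap (0.81, SE 0.25, adjusted p = 0.044). The brightest, 1435122_x_at, read 6672 and 5856 against 4857 and 4278. Its groups were also apart but its difference of 0.45 (95% interval -0.11 to 1.02) did not pass (adjusted p = 0.19). The suffixes x and s mark probe sets that can also bind other transcripts, and the suffix a marks one shared by several transcripts of the same gene. Without leukemic replicate 1 the adjusted p of the 2 called probe sets was 0.15 and 0.18, and without leukemic replicate 2 it was 0.18 and 0.27. Without mature replicate 1 that of 1447877_x_at was 0.071. Neither call held with every array at the same median (0.57 and 0.49) or without a variance trend, and without the filter on low signals 1447877_x_at was at 0.064. All 3 differences turned negative with arrays scaled to the hybridization controls (-0.87 to -0.44), and that of 1435122_x_at then passed as lower (adjusted p = 0.020).

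Uhrf1, whose protein recognises half-methylated DNA behind the replication fork, did not pass in either probe set. Its brighter one, 1415810_at, read 2120.0 and 1906 in leukemic against 1371 and 1232 in mature arrays, a log2 fold change of 0.62 (95% interval 0.06 to 1.18, adjusted p = 0.083). The dimmer one read 209 and 245 against 135 and 130 (0.70, 95% interval -0.10 to 1.50, adjusted p = 0.15). In both the leukemic arrays were the higher pair, while 70.0% of all tested probe sets had groups without overlap, in either direction. With scaling to the hybridization controls the differences were -0.69 (adjusted p = 0.043) and -0.51.

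Dnmt3b, a de novo methyltransferase that is active in early embryos and in stem cells, gave the largest difference of the family. Probe set 1449052_a_at read 2081 and 2536 in leukemic against 99.0 and 103 in mature arrays. Both leukemic arrays lay far above both mature arrays, and the ratio of the group means was 22.9. The log2 fold change was 4.31 (SE 0.27, 95% interval 3.66 to 4.95, adjusted p = 2.7e-04), above that of 99.0% of all tested probe sets. The other, 1418351_a_at, read 776 and 837 against 82.7 and 130, with the groups again well apart (2.78, SE 0.33, adjusted p = 0.0016). Both calls held under every alternative run. The log2 fold change ranged from 3.06 to 4.50 for 1449052_a_at and from 1.54 to 3.06 for 1418351_a_at, with the lowest value of each under scaling to the hybridization controls. These 2 probe sets differ in size of change, and that difference was not tested.

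Dnmt3a, the de novo enzyme of adult blood stem cells, had 5 probe sets of which 1 passed. Probe set 1423066_at, the brightest, read 607 and 601 in leukemic against 155 and 289 in mature arrays. The mature arrays differed from each other by more than the leukemic ones, and both lay below them (1.44, SE 0.36, adjusted p = 0.020). The call was lost without leukemic replicate 1 (adjusted p = 0.11), without leukemic replicate 2 (0.12) and with scaling to the hybridization controls (0.17, adjusted p = 0.70). Probe set 1423065_at read 414 and 343 against 134 and 263 and did not pass (0.94, adjusted p = 0.10), although it did without mature replicate 2 (1.39, adjusted p = 0.020). Without mature replicate 1 the difference was 0.49 (adjusted p = 0.24). Probe set 1423063_at read 426 and 358 against 271 and 282 (0.48, adjusted p = 0.25). The dimmest, 1423064_at, read 124 and 282 against 94.1 and 65.5, with a wide spread in leukemic marrow (1.11, adjusted p = 0.12). The leukemic and mature arrays nearly met in 1460324_at, at 312 and 280.3 against 186 and 279 (0.35, adjusted p = 0.46). The leukemic arrays were the higher pair in all 5, while 70.0% of all tested probe sets had groups without overlap, in either direction. These 5 probe sets read 1 gene on the same arrays and are not replicates. Under scaling to the hybridization controls 4 of the 5 turned negative (-0.90 to -0.060). Whether Dnmt3a and Dnmt3b differ in their change was not tested.

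Dnmt3l, the catalytically inactive partner of these enzymes that is known mainly from germ cells, was lower in leukemic marrow. Its single probe set, 1425035_s_at, read 11.8 and 16.9 in leukemic against 105 and 166 in mature arrays. The mature values were 9.39 times the leukemic ones on average, and the leukemic values lay in the dim range where MAS5 signals are noisy. The log2 fold change was -2.29 (SE 0.51, 95% interval -3.50 to -1.08, adjusted p = 0.014). Its call was lost without leukemic replicate 1 (adjusted p = 0.066) or leukemic replicate 2 (0.061), and without mature replicate 2 its mean fell under the filter on low signals. With pseudocounts of 1 and 64 the fold change was -3.13 and -1.33. The probe set passed the filter (lowest kept mean 47.6) only through its mature arrays, so the size of the fold rests on leukemic signals below that level. Without the filter the adjusted p was 0.030. The s suffix means that another gene's transcript may contribute.

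**Figure D2:**
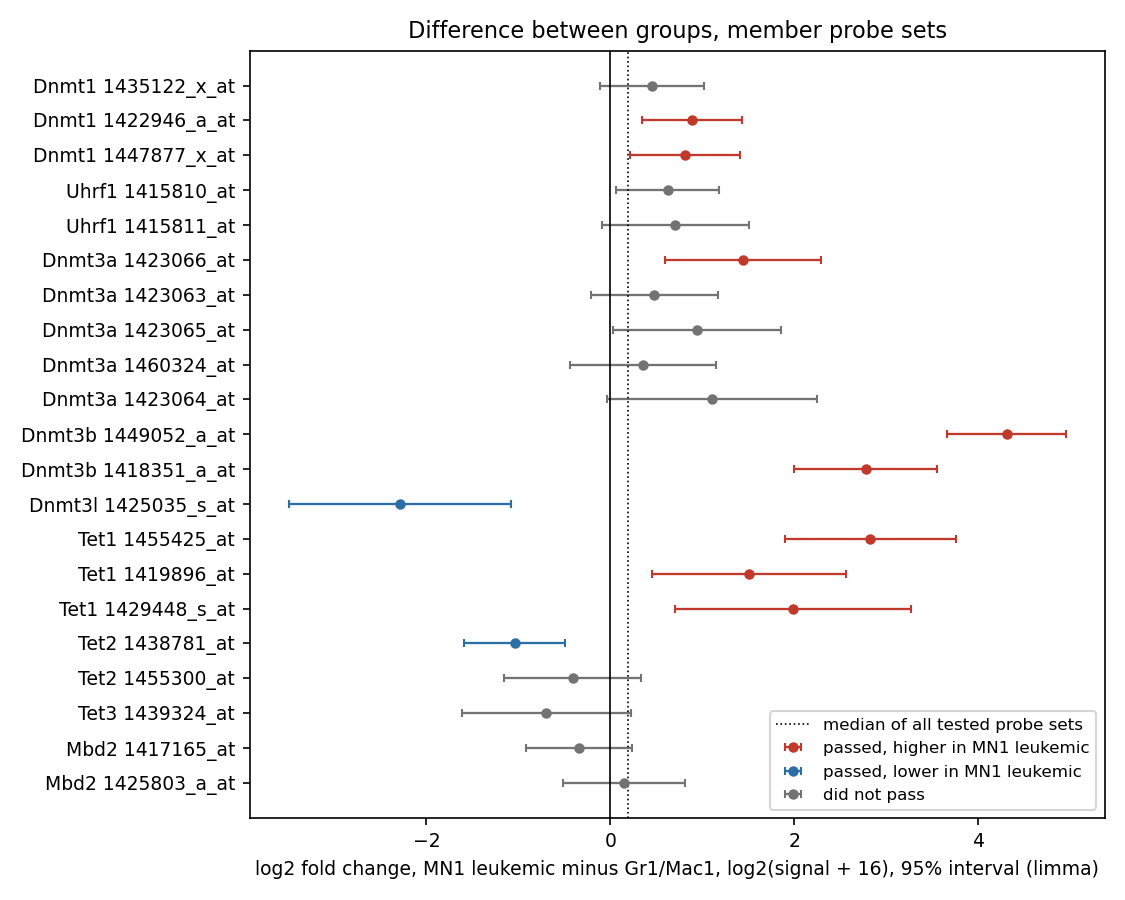
Log2 fold change, MN1 leukemic minus Gr1/Mac1, of the 21 tested member probe sets with 95% intervals from limma; the dotted line is the median of all tested probe sets, 0.19. The intervals of both Dnmt3b and the 3 Tet1 probe sets lie wholly above 0, and those of Dnmt3l and 1 Tet2 probe set wholly below it.

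Among the erasers, Tet1 was higher and Tet2 lower in leukemic marrow. Tet1, which is known from embryonic stem cells and as a fusion partner of MLL in human leukemia, had 4 probe sets. The brightest, 1455425_at, read 461 and 630 in leukemic against 44.8 and 84.4 in mature arrays. All leukemic values were several times the mature ones, with a mean ratio of 8.44 (2.83, SE 0.40, adjusted p = 0.0026). This call held under every alternative run, with a log2 fold change between 1.64 and 3.19. Probe set 1429448_s_at read 91.6 and 221 against 26.0 and 22.8 (1.98, SE 0.54, adjusted p = 0.029). Probe set 1419896_at read 178 and 120.1 against 46.5 and 36.4 (1.51, SE 0.45, adjusted p = 0.037). Neither overlapped between the groups, but both calls were less stable. Without leukemic replicate 2 they had an adjusted p of 0.30 and 0.13, without mature replicate 2 of 0.055 and 0.061, and with scaling to the hybridization controls of 0.17 and 0.46. Without leukemic replicate 1 that of 1419896_at was 0.27. Their mature means, 24.4 and 41.5, lay under the lowest mean kept by the filter on low signals, and without that filter the 2 calls were at 0.064 and 0.091, and 1419896_at was lost after quantile normalization (0.072) and with every array at the same median (0.069).

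The fourth Tet1 probe set, 1419897_at, went against the other 3. It read 4.50 and 51.8 in leukemic against 58.2 and 69.0 in mature arrays. The leukemic arrays were the lower pair, though 1 of them was close to the mature values. Its mean of 45.8 was just under the lowest mean kept by the filter, 47.6, so it was not tested.

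Tet2, which in mice and humans restrains the growth of blood stem cells, read 1085 and 1036 in leukemic against 2160.4 and 2237 in mature arrays at 1438781_at. The replicates of each group were close and the leukemic level was about 0.48 of the mature one. The log2 fold change was -1.04 (SE 0.23, adjusted p = 0.013). Leaving out leukemic replicate 1 or leukemic replicate 2 kept the size (-1.07 and -1.01) but not the call (adjusted p = 0.097 and 0.13). The second probe set, 1455300_at, read 228 and 281 against 305 and 384, the same order of groups with no call (-0.41, adjusted p = 0.35). With scaling to the hybridization controls the differences were -2.36 and -1.67, and both passed.

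Tet3, which in mice is known for acting on the paternal genome of the zygote, had 1 probe set, 1439324_at. It read 83.4 and 78.3 in leukemic against 129 and 154 in mature arrays. The leukemic pair was lower without overlap, and the difference did not pass (-0.70, 95% interval -1.62 to 0.22, adjusted p = 0.21). It passed with scaling to the hybridization controls (-1.84, adjusted p = 0.0073).

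Mbd2, the reader, did not pass in either probe set. Probe set 1417165_at read 3780 and 3689 in leukemic against 4215 and 5330.2 in mature arrays (-0.34, 95% interval -0.92 to 0.24, adjusted p = 0.32). Probe set 1425803_a_at read 759 and 765 against 819 and 576, so that both leukemic arrays fell between the mature ones (0.15, 95% interval -0.52 to 0.81, adjusted p = 0.73). These intervals leave room for a change of up to 0.92 on the log2 scale. Both passed as lower with scaling to the hybridization controls (-1.67 and -1.16).

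The sign of some differences rested on the scaling of the arrays. Scaling to the hybridization controls reversed 10 of the 21 tested member probe sets, each positive as deposited. Quantile normalization and the same median in every array reversed 1 each. The median log2 fold change of all tested probe sets was 0.19 as deposited, -0.04 after quantile normalization, -0.11 with every array at the same median and -1.07 with scaling to the hybridization controls. Of all called probe sets 60.9%, 51.4%, 45.0% and 11.6% were higher in leukemic marrow under the same 4 scalings. Measured against that median, each of the 21 member probe sets kept its side under all 4 scalings. The same-median and hybridization control scalings multiply whole arrays by a constant, which shifts nearly all log2 fold changes together. Relative to the median, both therefore had to stay close to the deposited values, and only quantile normalization was free to differ. Dnmt3b 1449052_a_at lay 4.12 to 4.20 above the median and Tet1 1455425_at 2.62 to 2.71 above it. Dnmt1 1422946_a_at lay 0.63 to 1.01 above it, and Uhrf1 1415810_at 0.37 to 0.63. Tet2 1438781_at lay between -1.29 and -1.06 and Dnmt3l between -2.49 and -2.10 relative to it. Mbd2 1425803_a_at was within 0.09 of it.

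**Figure D3:**
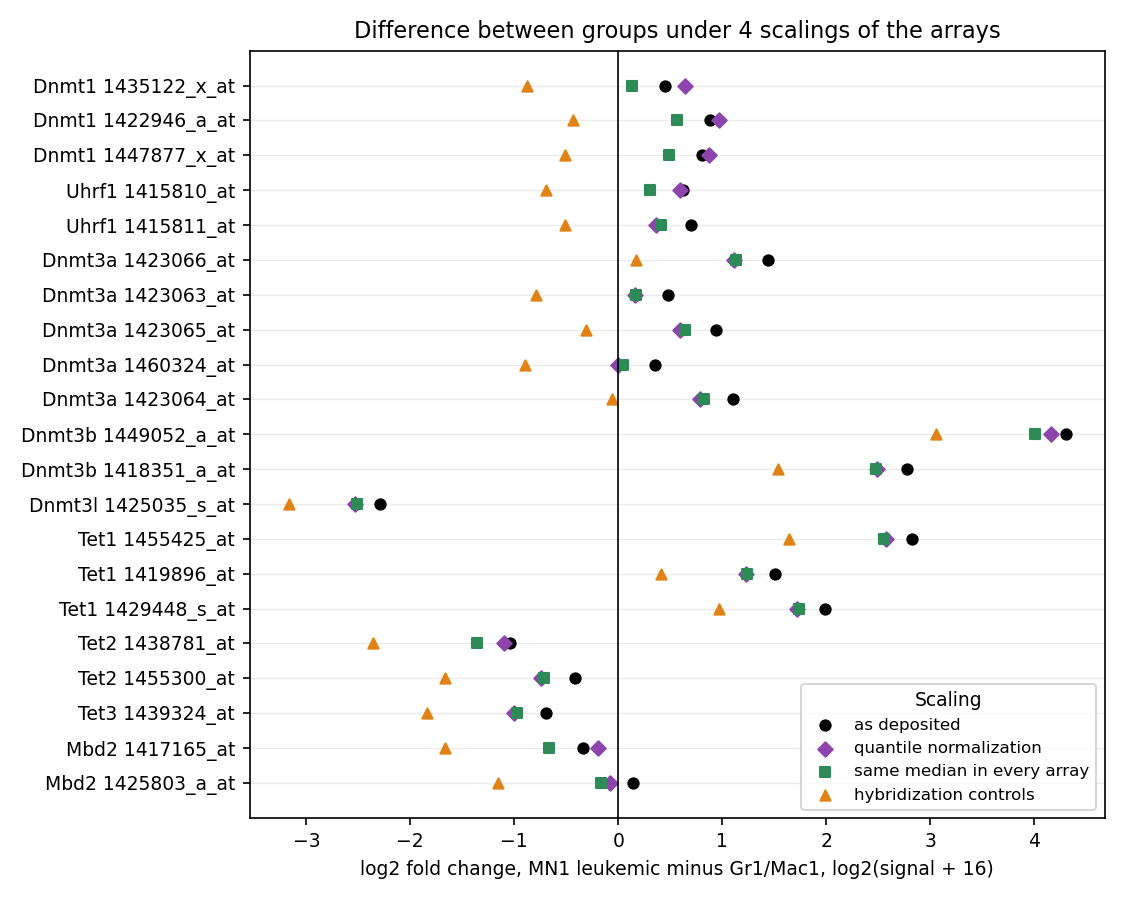
Log2 fold change, MN1 leukemic minus Gr1/Mac1, of the 21 tested member probe sets under 4 scalings of the arrays (1 symbol for each scaling). Scaling to the hybridization controls moves every probe set to the left. The probe sets of Dnmt3b and Tet1 and Dnmt3a 1423066_at stay above 0 under all 4. Those of Dnmt3l, Tet2 and Tet3 and Mbd2 1417165_at stay below 0 under all 4.

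Other genes of the pathway were read from the brightest tested probe set of each gene. Over all 12378 tested genes read in this way, 41.1% passed, 26.1% higher and 15.0% lower, with a median log2 fold change of 0.28. Under scaling to the hybridization controls the median over all tested genes was -1.02. Each list is given by its counts and median alone. Among the genes named from the lists, the probe sets of Trim28, Apex1, Hdac2, Rbbp7, Idh1, Idh3b, Mcm3, Mcm5 and Rrm2 carry the suffix x or s. Other transcripts may contribute to their values.

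Of 13 tested partners of the writers, 3 passed, all higher in leukemic marrow, with a median of 0.48. Trim28, a corepressor that guards methylation at imprinted genes, read 8637 and 10410.9 against 3474 and 2220 (1.77, adjusted p = 0.0047). The chromatin remodeller gene Hells, which is needed for normal methylation of repeats, read 1563 and 1665 against 505 and 842 (1.29, adjusted p = 0.017). Pcna, the replication clamp that binds Dnmt1, read 21415 and 21492 against 12954 and 10883 (0.85, adjusted p = 0.040). Without leukemic replicate 1 or leukemic replicate 2, Trim28 alone passed, and without mature replicate 1 there were 6. Scaling to the hybridization controls gave 0 higher and 8 lower, with a median of -0.84, and turned Hells (-0.024) and Pcna (-0.48) negative. The Pcna call was also lost without the filter, without a variance trend and with every array at the same median.

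Base excision, deaminase and Tet partner genes split, with 3 higher and 3 lower of 13 tested and a median of 0.43. Cxxc5, which encodes a CpG-binding protein, read 657 and 672 against 28.8 and 16.9 (4.15, SE 0.37, adjusted p = 7.2e-04). Its leukemic values were far above both mature ones. The mature mean of Cxxc5, 22.9, lay under the lowest mean kept by the filter, 47.6, so it was tested only through its leukemic arrays. With pseudocounts of 1 and 64 its log2 fold change was 4.85 and 3.07. The abasic site endonuclease gene Apex1 read 8347 and 9877 against 1212 and 581 (3.41, adjusted p = 0.0011), and the cytidine deaminase gene Apobec3 read 1628 and 2126 against 629 and 539 (1.65, adjusted p = 0.0041). In the other direction, the stress-induced gene Gadd45b read 408 and 253 against 2184 and 2302 (-2.74, adjusted p = 0.0012), and the RNA-editing deaminase gene Apobec1 read 529 and 604 against 3173 and 2067 (-2.15, adjusted p = 0.0023). Gadd45g, added after its value was seen, was the other lower gene (-1.94). The Apobec3 call was lost without leukemic replicate 2 (1.46, adjusted p = 0.057) and with scaling to the hybridization controls (0.34), under which the list had 2 higher and 6 lower genes and a median of -0.79. The list median was -0.04 without mature replicate 2 and 0.77 without mature replicate 1, against 0.33 and 0.24 over all tested genes. It was 0.11 after quantile normalization, 0.13 with every array at the same median and 0.15 without the filter. Over all tested genes the median in these 3 runs was 0.09, -0.03 and 0.15.

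The other readers and the NuRD subunits that Mbd2 works with had 7 of 18 tested genes higher, none lower and a median of 0.68. Mta1 read 716 and 479 against 68.4 and 159 (2.31, adjusted p = 0.0073) and the deacetylase gene Hdac2 read 4059 and 4812 against 978 and 1132 (2.05, adjusted p = 0.0016). Mbd3, the counterpart of Mbd2 in NuRD, read 756 and 523 against 261 and 114 (1.76, adjusted p = 0.019), and the histone chaperone gene Rbbp7 read 23915 and 22181 against 7760.4 and 7333 (1.61, adjusted p = 0.0035). Mbd2 itself, at its brightest probe set, had a log2 fold change of -0.34 and did not pass. The 4 genes were named for the size of their change, and whether they differ from Mbd2 was not tested. Without leukemic replicate 1 there were 2 calls, with Mta1 at an adjusted p of 0.057 and Mbd3 at 0.12, and without leukemic replicate 2 there were 3, with Mbd3 at 0.055. With every array at the same median, without the filter or without a variance trend there were 4. With scaling to the hybridization controls 1 was higher and 6 were lower, the median was -0.57 and Hdac2 kept its call (0.73, adjusted p = 0.039).

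Enzymes that supply the methyl donor or 2-oxoglutarate, the cosubstrate of the Tet enzymes, had 7 of 12 tested genes higher, 1 lower and a median of 1.11. Mtrr and Mtr, which together remake methionine, read 428 and 404 against 42.2 and 24.2 (3.16, adjusted p = 0.0018) and 828 and 793 against 159 and 96.0 (2.56, adjusted p = 0.0021). The mature mean of Mtrr, 33.2, lay under the lowest mean kept by the filter, 47.6, so Mtrr was tested only through its leukemic arrays. With pseudocounts of 1 and 64 the log2 fold change of Mtrr was 3.66 and 2.31. Ahcy, which clears the by-product of methylation, read 4982 and 5119 against 937 and 448 (2.93, adjusted p = 0.0017). Among the isocitrate dehydrogenase genes, Idh1 was the only lower one. Mitochondrial Idh2 read 4232 and 3764 against 974 and 413 (2.62, adjusted p = 0.0034), while cytosolic Idh1 read 3908 and 2903 against 11003 and 7977 (-1.47, adjusted p = 0.0079). Idh3a (2.01, adjusted p = 0.0019) and Idh3b (1.03, adjusted p = 0.028) also passed as higher, and Idh3g did not pass (0.74, adjusted p = 0.084). The Idh1 call was lost without leukemic replicate 2 (-1.26, adjusted p = 0.076), which left 5 calls on the list. Under scaling to the hybridization controls 4 were higher and 4 lower, with a median of -0.21, and Mtrr, Ahcy, Idh2 and Mtr kept their calls (1.31 to 2.05).

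S phase genes were counted beside Dnmt1 and Uhrf1, since both are known to be made mainly in dividing cells. Of 19 tested, 15 passed as higher and none as lower, with a median of 1.17. Chaf1b (2.05), Mcm2 (1.99), Cdc6 (1.77) and Mcm3 (1.59) had the largest changes. Mcm5 (0.58, adjusted p = 0.14), Ccne2 (0.52, adjusted p = 0.30), Mki67 (0.21, adjusted p = 0.57) and Rrm2 (0.05, adjusted p = 0.90) did not pass. Mki67 read 15597 and 13553 against 13746 and 11422. The Mki67 signals of the groups overlapped. Without leukemic replicate 1 or leukemic replicate 2 the list had 4 calls, with every array at the same median 7, and with scaling to the hybridization controls 1 higher and 2 lower at a median of -0.11. The part of S phase genes in the Dnmt1 and Uhrf1 values was not tested.

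**Figure D4:**
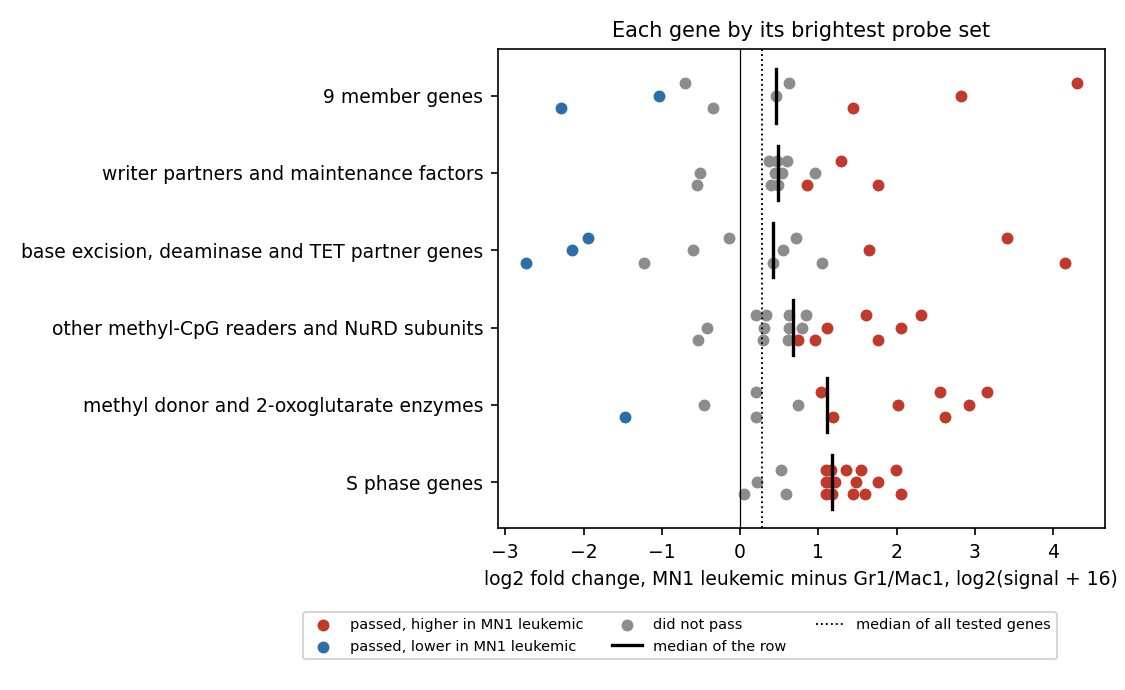
Log2 fold change, MN1 leukemic minus Gr1/Mac1, of the 9 member genes and of the tested genes of 5 lists, each gene as 1 point at its brightest tested probe set; bars are the median of each row and the dotted line that of all tested genes, 0.28. The S phase row lies wholly above 0 and the members spread from Dnmt3l at -2.29 to Dnmt3b at 4.31.

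The genes whose log2(signal + 16) lay closest to that of Dnmt3b over the 4 arrays, by Euclidean distance, were Cad (0.14), Ipo4 (0.42) and Bhlhb9 (0.48). Cad, which starts pyrimidine synthesis, read 2058 and 2666 in leukemic against 109 and 99.1 in mature arrays. For Dnmt3l they were Naprt (0.33), P2ry12 (0.34) and Serpinf2 (0.34), with signals of 10.0 to 17.1 in leukemic and 105 to 164 in mature arrays. With 4 arrays in 2 groups many genes share such a profile.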

How the data were processed

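The deposited values are MAS5 signals on a linear intensity scale. The authors computed them in GCOS 1.3.0, according to the submitters' processing notes; the scale target and detection calls were not used here. MAS5 scaling is linear, so a change in RNA makeup can shift every signal, and precision is limited by having 2 arrays a group. Gene symbols came from the platform annotation. The 64 control probe sets and the 40% of the others with the lowest mean signal were left out, which kept 27022. These were compared as log2(signal + 16) in limma 3.58.1 under R 4.3.3 (two-sided moderated test, variance trend on), with 7.04 degrees of freedom after moderation. An exact permutation of 2 against 2 arrays cannot give a p below 0.333. Single genes were read from their brightest kept probe set.

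The members, lists and alternatives were chosen with earlier results of these data known. All 9 members are named, and from each list up to 4 called genes in its main direction and 2 in the other, by size of change. Gadd45g, Mki67, Rrm2, Mcm5, Ccne2, Idh3a, Idh3b and Idh3g were added after their values were seen. The fit was tested on simulated data. Alternatives were pseudocounts of 1 and 64, no filter, the lowest 60% left out, 3 other scalings, 2 other variance models, 1 probe set a gene, a replicate block, and each array left out, where the remaining array of that group borrows the spread of the other group. Replicate numbers were not shown to pair the arrays, since same-numbered deviations correlated at -0.04 over probe sets. Figures were drawn with matplotlib 3.10.9.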

Additional observations from a re-analysis of the deposited data

How the results depend on the processing

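Both Dnmt3b probe sets and Tet1 1455425_at kept direction and call under every alternative in which they were fitted. Leaving out each array in turn gave 3693 to 10345 changed probe sets, 3 to 9 changed member probe sets and 2 to 5 changed member genes. For the lists it gave 1 to 6 changed writer partners, 5 to 9 base excision, deaminase and Tet partner genes, 2 to 8 readers and NuRD subunits, 5 to 9 methyl donor and 2-oxoglutarate enzymes and 4 to 16 S phase genes. The lowest counts all came without 1 of the leukemic arrays, and the highest without 1 of the mature arrays; the cause was not tested. Fitting 1 probe set a gene, which tests fewer probe sets, gave 5375 changed, 5 of them members. Readers and NuRD subunits had 4 calls without the filter, 4 with every array at the same median and 4 without a variance trend, and S phase genes had 7 with every array at the same median; the cause was not tested.

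Scaling to the hybridization controls gave 14657 changed probe sets, 8 member genes (2 higher, 6 lower), 8 writer partners and 3 S phase genes. By construction it lowers every leukemic signal against the mature ones. It reversed Dnmt1 1435122_x_at (-0.87), 1422946_a_at (-0.44) and 1447877_x_at (-0.51), Uhrf1 1415810_at (-0.69) and 1415811_at (-0.51), and Dnmt3a 1423063_at (-0.79), 1423065_at (-0.31), 1460324_at (-0.90) and 1423064_at (-0.060). It also reversed Mbd2 1425803_a_at (-1.16), Hells (-0.024) and Pcna (-0.48). Mbd2 1425803_a_at was negative as well after quantile normalization (-0.080) and with every array at the same median (-0.17), and leaving out each array in turn moved it between -0.10 and 0.39; the cause was not tested.

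With the replicate number as a block, 9822 probe sets were called, against 9428 without it. Dim probe sets such as those of Dnmt3l, Tet3 and most of Tet1 limit what can be read from their size of change.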
